A study of Homo sapiens with 36 samples.

Results

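The 9 genes described here encode the enzymes that make serine and pass its carbon into the folate pool: PHGDH, PSAT1 and PSPH of serine synthesis, SHMT1 and MTHFD1 of the cytosolic folate branch, and SHMT2, MTHFD2, MTHFD1L and ALDH1L2 of the mitochondrial branch. They were chosen by name, with earlier results of these data known. All 9 were found among the 20802 genes of the count table and among the 12102 genes that passed the filter on low counts. The cells were LoVo, an established human colorectal cancer line, grown with serum and exposed for 24 h to a MEK inhibitor at 0.03, 0.1, 0.3, 1, 3, 10, 30, 100, 300 or 1000 nM, or to DMSO alone. There were 3 libraries at every dose, and 6 DMSO libraries, 3 sequenced on chip 1 and 3 on chip 2. The inhibitor is given in the labels only by a compound number of a chemistry article, and all groups are the same cell line.

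Serine synthesis starts from an intermediate of glycolysis. PHGDH oxidises it, PSAT1 adds an amino group and PSPH removes the phosphate to leave serine. Serine hydroxymethyltransferases then split serine into glycine and a one-carbon unit bound to tetrahydrofolate, SHMT1 in the cytosol and SHMT2 in mitochondria. The unit is carried between oxidation states by MTHFD1 in the cytosol and by MTHFD2 and MTHFD1L in mitochondria, which release formate for purine and thymidylate synthesis. In many proliferating cells the mitochondrial branch is known as the main source of formate, and ATF4 and MYC are known to activate genes of these pathways.

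RNA was read as short amplicons made with primers for each gene, so counts of different genes are not compared with each other. A library held 2972186 to 4751839 counts (median 3952427), and no member had fewer than 48 counts in any library. Values are normalised counts, scaled to library size by TMM (CPM). Fold changes are log2 differences from the mean of both DMSO groups, and a gene was called when edgeR's quasi-likelihood test against the DMSO libraries of either chip gave a Benjamini-Hochberg adjusted p below 0.05 over all tested genes. The DMSO libraries of chip 2 differed from those of chip 1 by 0 called genes, with 9 of 9 members uncalled. DUSP6, a phosphatase gene switched on by ERK, averaged 1.89 ± 0.468 CPM at 1000 nM (SD, n = 3) and 64.2 ± 4.15 CPM in DMSO (SD, n = 6). The 6 DMSO libraries may come from 3 cultures; over the 3 means of same-numbered libraries, the DMSO SDs of the members, their ratios and the other genes given with an SD were 0.481 to 1.04 times those printed. The first replicates of 1 and 1000 nM and the second of 0.1 nM stood farther from their nearest replicate than any other library, and results that rest on them are given without them as well. Epithelial markers summed to between 4236 and 4670 CPM at 1000 nM and between 3770 and 3968 CPM in DMSO, with none of the 10 at 0. The sum joins opposite changes: at 1000 nM 5 of the 10 were called higher and 2 lower, beside 21.2% and 20.7% of all tested genes. KRT19 averaged 1505 CPM at 1000 nM and 660.3 CPM in DMSO, and KRT8 1117 and 1520 CPM.

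All 9 members fell at the highest dose, but from different doses and by different amounts. At 1000 nM the median log2 fold change was -1.70 over the 3 serine synthesis genes, -2.04 over the 4 mitochondrial genes and -0.69 over the 2 cytosolic genes, against 0.01 over all tested genes. Members called lower numbered 0 at 0.03, 0.1 and 0.3 nM, 5 at 1 nM, 7 at both 3 and 10 nM, 8 at 30, 100 and 300 nM and 9 at 1000 nM. Among all tested genes the share called lower was 0% at the 3 lowest doses and then, in order of dose from 1 to 1000 nM, 4.02%, 6.68%, 13.3%, 18%, 18.8%, 23% and 20.7%. No member was called higher at any dose, where 21.2% of tested genes were called higher at 1000 nM. At the 3 lowest doses no tested gene was called with edgeR, and 42, 299 and 330 genes had an unadjusted p below 0.05 at 0.03, 0.1 and 0.3 nM. Counted without a test, the members whose 3 libraries all lay below every DMSO library numbered 1, 0, 2, 6, 7, 7, 8, 9, 8 and 8 over the 10 doses in rising order, beside 1.02%, 2.27%, 4.83%, 10.5%, 14.4%, 20.1%, 21.5%, 23.5%, 26.4% and 22.4% of all tested genes. In bulk RNA, fewer cells of a type and less RNA per cell cannot be told apart.

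**Figure D1:**
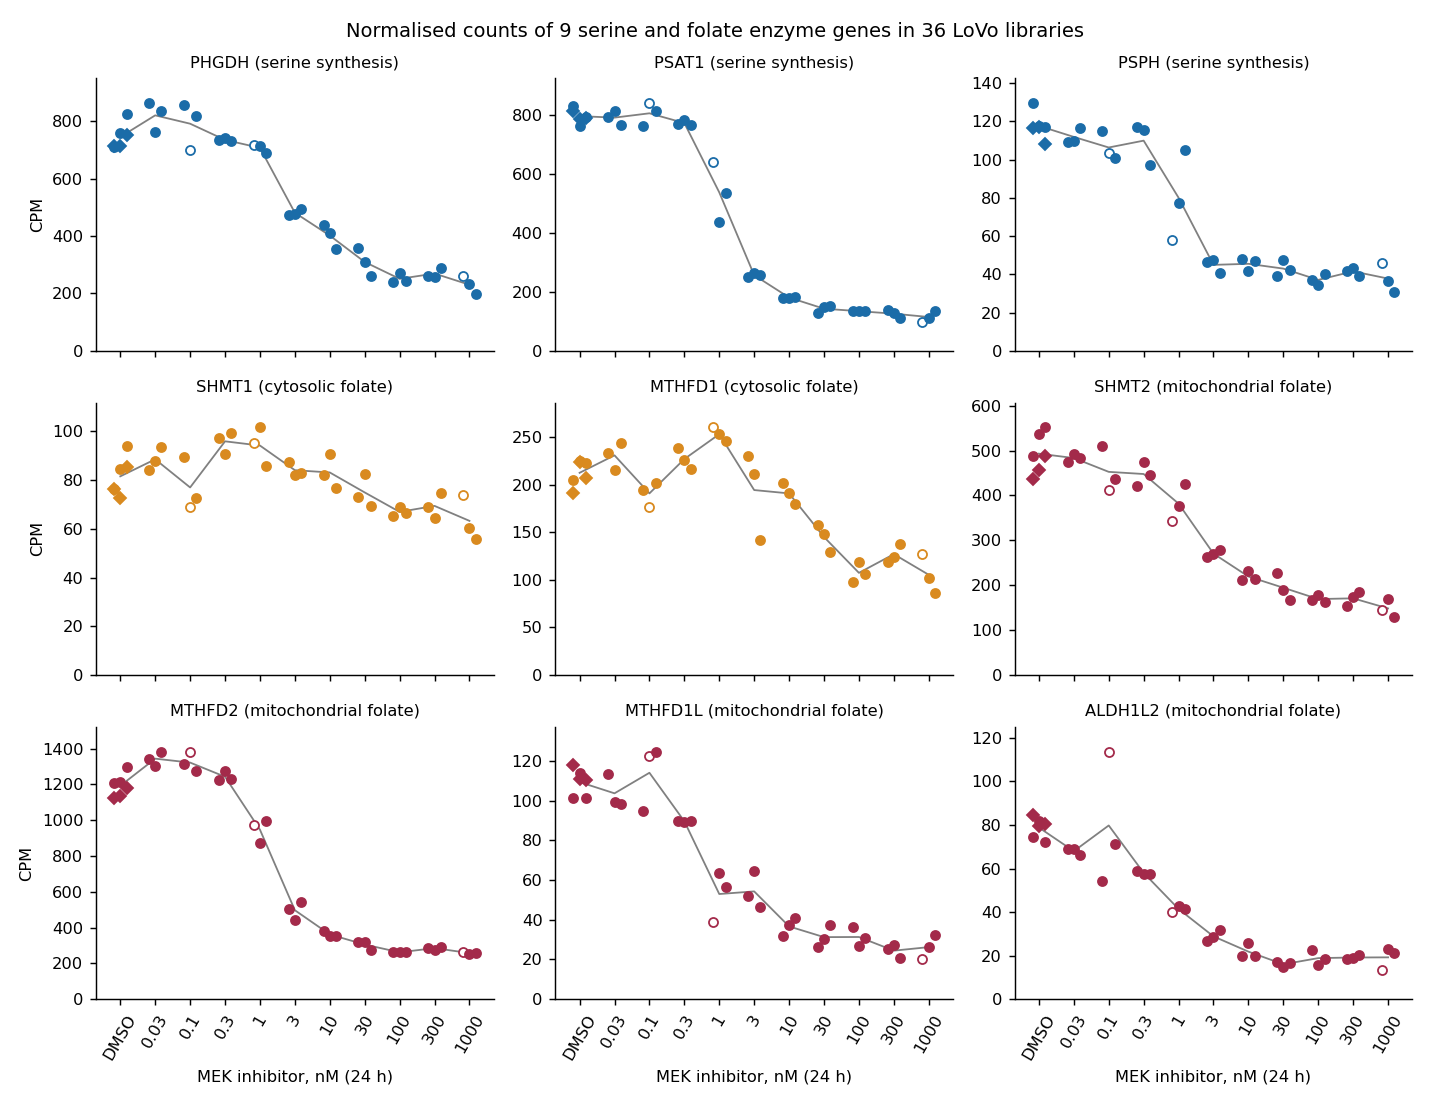
CPM of each member (y axes from 0) in all 36 libraries, with DMSO and the dose in nM on the x axis. Circles are libraries, diamonds are DMSO libraries of chip 2, open symbols are the 3 libraries that stand apart, and lines join the means of DMSO and of each dose. At 1000 nM the 3 libraries lie below all DMSO libraries for 8 genes and overlap them for SHMT1.

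PSAT1, the aminotransferase in the middle of the serine pathway, had the largest fold change of the 9 at 1000 nM. At 1 nM its libraries held 640.2, 438.8 and 535.3 CPM, against 764.0 to 831.1 CPM (median 792.7) in the 6 DMSO libraries. All 3 were below every DMSO library, although replicate 1, which stood apart, was the nearest to them. At 3 nM PSAT1 had 249.4, 264.2 and 257.2 CPM, and at 10 nM 180.6, 179.6 and 182.8 CPM. It reached 99.1, 110.9 and 134.4 CPM at 1000 nM, a log2 fold change of -2.79 (SE 0.106, adjusted p = 4.96e-27, edgeR), or 6.93-fold lower than in DMSO. Below 1 nM there was no such difference: the means were 791.9 ± 24.1, 806.6 ± 39.3 and 773.6 ± 7.74 CPM at 0.03, 0.1 and 0.3 nM and 796.9 ± 23.2 CPM in DMSO (SD, n = 3 at each dose and 6 in DMSO).

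PSPH, the phosphatase that completes serine synthesis, was lower from the same dose, with no step between doses called above 3 nM. It had 57.9, 77.5 and 104.8 CPM at 1 nM, against 108.0 to 129.5 CPM (median 117.1) in DMSO. The 1 nM libraries were widely spread, and the call at that dose (log2 fold change -0.54, SE 0.126, adjusted p = 0.00742, edgeR) was lost without replicate 1 of 1 nM, where the value was -0.38 with an adjusted p of 0.0873. At 3 nM all 3 libraries lay between 40.9 and 47.7 CPM, and at 1000 nM they held 45.9, 36.6 and 30.9 CPM. From 3 to 1000 nM its log2 fold changes stayed between -1.37 and -1.66.

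PHGDH, the first enzyme of the pathway, was lower only from 3 nM. At 1 nM it held 718.5, 713.5 and 691.1 CPM, against 709.1 to 824.0 CPM (median 733.8) in DMSO, and the groups overlapped. At 3 nM the libraries held 475.2, 476.0 and 493.1 CPM, all below DMSO, with a log2 fold change of -0.63 (SE 0.097, adjusted p = 8.45e-06, edgeR). Means went on down to 401.9 ± 41.7 CPM at 10 nM, 309.8 ± 47.6 CPM at 30 nM and 251.0 ± 17.3 CPM at 100 nM (SD, n = 3 each). At 1000 nM PHGDH had 260.3, 234.3 and 196.6 CPM, a log2 fold change of -1.70 (SE 0.101, adjusted p = 3.95e-19).

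MTHFD2, the mitochondrial dehydrogenase and cyclohydrolase, had the largest fold change of the folate enzymes at 1000 nM, though those of MTHFD1L and ALDH1L2 were within 0.2 of it on the log2 scale. It had 971.2, 871.0 and 997.3 CPM at 1 nM, against 1121 to 1295 CPM (median 1195) in DMSO. The groups did not overlap and the gene was called (log2 fold change -0.33, SE 0.080, adjusted p = 0.0233, edgeR), but the call was lost without replicate 2 of 1 nM (adjusted p = 0.136), without replicate 3 of DMSO chip 2 (0.0876) and with no filter on low counts (0.0765). From 3 nM the difference was far beyond the spread, with 502.2, 443.2 and 544.9 CPM at that dose. At 1000 nM the libraries held 264.5, 251.3 and 256.5 CPM, a log2 fold change of -2.21 (SE 0.085, adjusted p = 2.15e-26). At 0.03 nM all 3 libraries, at 1303 to 1383 CPM, were above every DMSO library, with a fold change that did not pass the test.

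SHMT2, the mitochondrial hydroxymethyltransferase, had 344.1, 376.3 and 424.8 CPM at 1 nM, against 437.1 to 551.6 CPM (median 488.2) in DMSO. These libraries lay below all of DMSO, yet the gene was not called, as a call must hold against both chips (log2 fold change -0.36, SE 0.099, adjusted p = 0.0862, edgeR). The test was passed against chip 1 alone (adjusted p = 0.0011), against the average of the DMSO groups (0.00187), with DMSO counts summed over chips (0.00545) and without replicate 3 of 1 nM (0.0315). At 3 nM SHMT2 was called at -0.86 (SE 0.100, adjusted p = 5.12e-08). At 1000 nM it held 144.9, 169.7 and 130.3 CPM, at -1.73 (SE 0.104, adjusted p = 1.62e-18).

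MTHFD1L, which releases formate in mitochondria, was already lower at 1 nM than at any smaller dose, with 39.0, 63.6 and 56.3 CPM, against 101.2 to 117.9 CPM (median 110.7) in DMSO. The lowest of these was the library that stood apart, and without the 3 such libraries the log2 fold change at 1 nM was -0.86 (SE 0.130) in place of -1.02 (SE 0.144), both called. At 1000 nM MTHFD1L had 20.0, 26.3 and 32.3 CPM, at -2.05 (SE 0.157, adjusted p = 9.58e-15, edgeR). ALDH1L2, which oxidises formyl-tetrahydrofolate in mitochondria and yields NADPH, had 40.0, 42.8 and 41.5 CPM at 1 nM, against 72.4 to 84.5 CPM (median 79.9) in DMSO. Its change was -0.92 at 1 nM (SE 0.157, adjusted p = 0.000148) and -2.03 at 1000 nM (SE 0.173, adjusted p = 2.31e-13). At 0.3 nM both genes were below every DMSO library, MTHFD1L at 89.5, 89.4 and 89.8 CPM and ALDH1L2 at 59.1, 57.4 and 57.5 CPM, without passing the test. Of all tested genes, 4.83% were likewise below every DMSO library at 0.3 nM.

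MTHFD1L is the member whose promoter held both of the motifs searched, and its stretches are shown for that reason. RefSeq promoter windows (GRCh38.p14), from 250 bases before to 50 after an annotated start, were at hand for 6 of 9 members, which leaves out PSPH, SHMT2 and ALDH1L2. Of the 9 windows of these members, MTHFD1L had 4, more than any other, and so more sequence to match. Its last window had no match, and the others hold the same sites. Both strands were searched for TGATGNAA, the core of the element that binds C/EBP and ATF proteins, and for CACGTG, the E-box that MYC can bind. TGATGNAA occurred in 4.46% and CACGTG in 8.77% of the 27305 genes of the table. PHGDH, PSAT1, SHMT1 and MTHFD2 had no match in their windows. The first MTHFD1L stretch, at chr6:150866346-150866375 on the plus strand, holds the ATF motif in capitals at bases -129 to -122 from one annotated start of MTHFD1L and after another, and the second, at chr6:150866320-150866349, holds the E-box at -154 to -149 from the same start. The capitals do not overlap, and the matches are descriptions of the letters, not of binding.
MTHFD1L, ATF motif: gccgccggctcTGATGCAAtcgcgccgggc
MTHFD1L, E-box: cacgcccggctcCACGTGcgcagccggccg

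The cytosolic enzymes behaved differently below 30 nM. MTHFD1, the cytosolic protein that joins the steps carried out by MTHFD2 and MTHFD1L in mitochondria, had 260.6, 253.7 and 246.0 CPM at 1 nM, against 191.7 to 224.8 CPM (median 215.4) in DMSO. All 3 libraries were above DMSO, at a log2 fold change of 0.25 (SE 0.118) that did not pass the test (adjusted p = 0.296, edgeR). At 3 and 10 nM, where all mitochondrial members were called lower, MTHFD1 was at -0.13 (SE 0.118) and -0.15 (SE 0.119), uncalled, and overlapped DMSO. The 3 nM value rested on replicate 3, with 141.7 CPM beside 230.2 and 212.0 CPM, and was 0.05 without it. From 30 nM MTHFD1 was called lower: the libraries held 158.3, 148.4 and 129.0 CPM at that dose and 127.8, 102.4 and 86.1 CPM at 1000 nM, where the change was -1.02 (SE 0.123, adjusted p = 4.53e-09). Its promoter window had no ATF motif, and held an E-box at bases -15 to -10 from the start, at chr14:64388326-64388352 on the plus strand, shown in capitals for comparison with MTHFD1L.
MTHFD1, E-box: ccagtccctaagCACGTGggttgggtt

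SHMT1, the cytosolic hydroxymethyltransferase, had the smallest change of the 9 at 1000 nM. It had 95.2, 101.6 and 85.7 CPM at 1 nM, against 72.5 to 93.8 CPM (median 80.6) in DMSO. It overlapped DMSO at every dose except 100 nM, with 65.4, 68.8 and 66.6 CPM. Log2 fold changes over the doses from 1 to 300 nM were 0.21, 0.05, 0.03, -0.12, -0.28 and -0.23, none of them called, and the signs at 3 and 10 nM turned with chip 1 as the only DMSO reference. At 1000 nM SHMT1 held 73.7, 60.3 and 55.7 CPM and was called at -0.37 (SE 0.115, adjusted p = 0.0284, edgeR). That call was lost without replicate 2 of 1000 nM (adjusted p = 0.0828), replicate 3 of 1000 nM (0.167) or replicate 3 of DMSO chip 2 (0.138), and when only the libraries compared were fitted (0.0674). Without the 3 libraries that stood apart it was kept, at -0.49 (SE 0.116, adjusted p = 0.00213, edgeR). Of the 1000 nM libraries, only replicate 1, which stood apart, lay within the DMSO range.

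**Figure D2:**
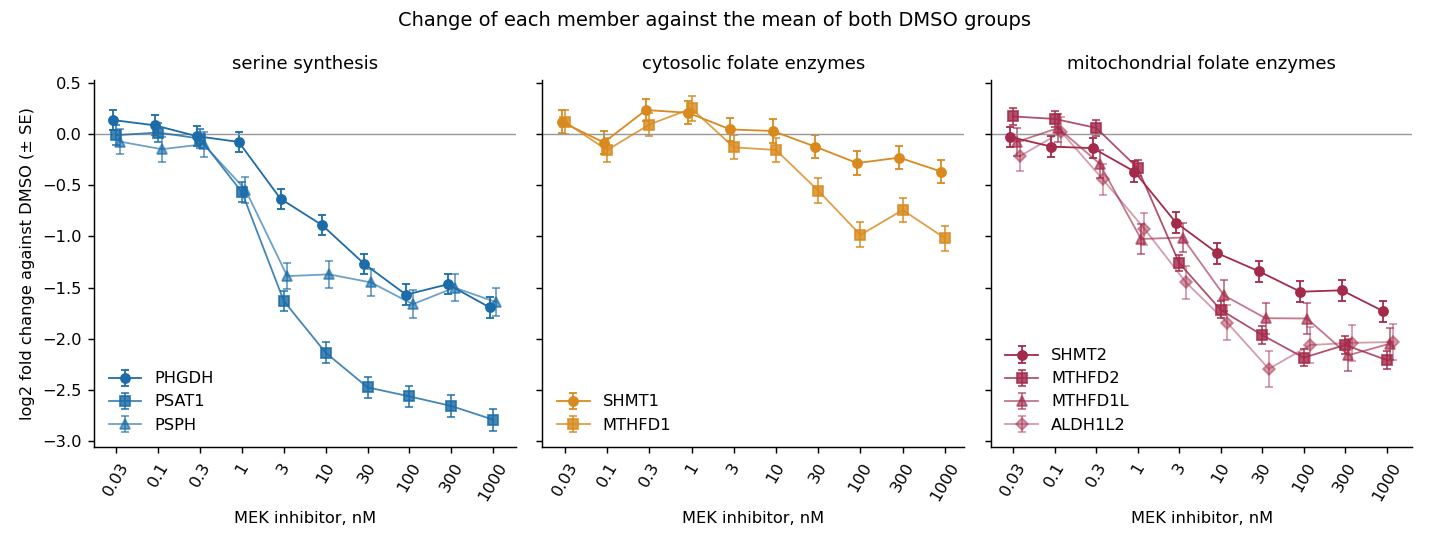
Log2 fold change of each member against the mean of both DMSO groups (y axis, bars are the SE of the edgeR fit) at each dose in nM (x axis), in 3 panels by role. Serine synthesis and mitochondrial genes separate from 0 between 0.3 and 3 nM, SHMT1 stays within 0.4 of 0 throughout, and MTHFD1 separates from 30 nM.

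Set against its partner within each library, which removes library scaling, the mitochondrial enzyme was lower relative to the cytosolic one at the higher doses. At 0.3, 3, 10 and 1000 nM the log2 ratio of SHMT2 to SHMT1 averaged 2.22 ± 0.146, 1.68 ± 0.083, 1.40 ± 0.069 and 1.23 ± 0.259 (SD, n = 3 each), against 2.59 ± 0.076 in DMSO (SD, n = 6). It lay below all DMSO libraries at 0.03 nM and from 0.3 nM up, and overlapped them at 0.1 nM. The change from 10 to 1000 nM, 1.40 against 1.23, was smaller than the SD at 1000 nM. The ratio of MTHFD2 to MTHFD1 had its lowest mean at 10 nM, 0.92 ± 0.049, and stood at 1.29 ± 0.131 at 100 nM and 1.30 ± 0.262 at 1000 nM (SD, n = 3 each), against 2.48 ± 0.087 in DMSO (SD, n = 6). The lowest mean thus fell at a dose where MTHFD2 was called lower and MTHFD1 was not. At 3 nM this ratio averaged 1.38 ± 0.490 (SD, n = 3), with replicate 3 at 1.94. At 0.1 nM it went the other way, with a mean of 2.79 ± 0.157 (SD, n = 3). All 3 libraries there lay above every DMSO library, the lowest at 2.655 against a DMSO highest of 2.558. Replicate 2 of 0.1 nM, at 2.962, stood apart. The ratio of MTHFD1L to MTHFD1 was -0.96 ± 0.147 in DMSO (SD, n = 6). At 1, 3, 10, 100 and 1000 nM it was -2.28 ± 0.396, -1.82 ± 0.284, -2.38 ± 0.268, -1.78 ± 0.360 and -2.01 ± 0.629 (SD, n = 3 each). It lay below all DMSO libraries from 0.3 nM up, but did not fall steadily with dose. At 1 nM replicate 1, which stood apart, was at -2.73, and the other libraries were at -1.99 and -2.12. The change of this ratio at 1000 nM was -1.05, and -0.72 without replicate 1 of that dose, which stood apart. Ratios were chosen with the pattern known and are given without a test, and their level depends on the amplicons.

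**Figure D3:**
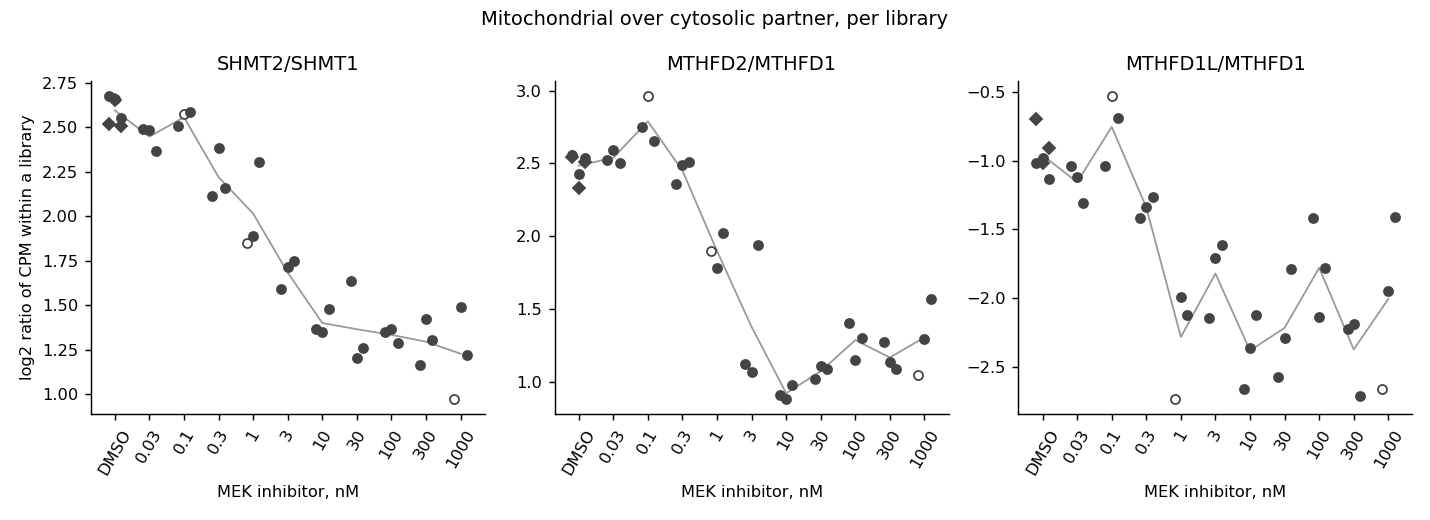
Log2 ratio of CPM of the mitochondrial to the cytosolic enzyme in each of 36 libraries (y axes do not start at 0) against DMSO and dose in nM (x axis). Circles are libraries, diamonds are DMSO libraries of chip 2, open symbols are the 3 libraries that stand apart and lines join means. All 3 ratios lie below every DMSO library at 1 nM and above that dose, and MTHFD2 over MTHFD1 is lowest at 10 nM.

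Between neighbouring doses, all calls of members lay at the steps between 0.3 and 10 nM. Declines spread over several steps, such as those of MTHFD1 and PHGDH above 10 nM against DMSO, gave no call at any 1 step there. From 0.3 to 1 nM, 4 members were lower at the higher dose, PSAT1 (-0.53, SE 0.096, adjusted p = 0.000615, edgeR), PSPH (-0.44, SE 0.124, 0.0373), MTHFD2 (-0.39, SE 0.080, 0.00224) and MTHFD1L (-0.74, SE 0.143, 0.00144), where 1.21% of tested genes were lower. From 1 to 3 nM it was 6 members, where 2.87% of tested genes were lower: PSAT1 (-1.06), MTHFD2 (-0.93), PSPH (-0.85), PHGDH (-0.56), SHMT2 (-0.50) and MTHFD1 (-0.38). The last of these had an adjusted p of 0.0465, and leaving out single replicates gave 5 to 7 members at this step. From 3 to 10 nM, 3 members were lower, where 0.744% of tested genes were: MTHFD1L (-0.57), PSAT1 (-0.51) and MTHFD2 (-0.46). No member differed between neighbouring doses up to 0.3 nM or from 10 nM up, where 0.182% of tested genes were lower from 10 to 30 nM, 0.0578% from 30 to 100 nM and 0% at the other steps. Without the 3 libraries that stood apart, PSPH was not called from 0.3 to 1 nM and ALDH1L2 was (-0.46, SE 0.124, adjusted p = 0.0256), and from 1 to 3 nM MTHFD1 lost its call (-0.36, SE 0.117, adjusted p = 0.072) while ALDH1L2 was called (-0.55, SE 0.131, adjusted p = 0.00661). In that fit PHGDH and SHMT2 joined those lower from 3 to 10 nM, PHGDH and PSAT1 were lower from 10 to 30 nM, and PHGDH (-0.33, SE 0.094, adjusted p = 0.0265) and MTHFD1 (-0.44, SE 0.132, 0.0391) were lower from 300 to 1000 nM. The chip of the treated libraries is not in the labels, so a chip difference between doses and a dose difference cannot be told apart here.

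Fitted to all 36 libraries, the half-maximal dose (EC50) was 1.29 nM for PSPH (95% interval 0.800 to 2.08), 1.35 nM for ALDH1L2 (0.881 to 2.06), 1.71 nM for MTHFD1L (1.03 to 2.84), 2.55 nM for PSAT1 (2.05 to 3.16), 2.69 nM for MTHFD2 (2.12 to 3.41) and 3.23 nM for SHMT2 (2.30 to 4.54). The intervals of neighbours in this order overlap, so the order of neighbours is not resolved. With the slope of the curve fixed at 1, as in these fits, those of PSPH and ALDH1L2 lie narrowly below that of MTHFD2 and below that of SHMT2. A free slope was 2.28 (SE 0.632) for PSPH and 1.41 (SE 0.142) for MTHFD2, with EC50 values of 1.26 and 2.46 nM. Leaving out single replicates with the fixed slope gave 1.06 to 1.64 nM for PSPH and 2.56 to 2.91 nM for MTHFD2. In the fits to all libraries PHGDH followed SHMT2 at 6.28 nM (4.48 to 8.82). Its interval overlaps that of SHMT2 and lies above those of PSAT1 and PSPH, its partners in the pathway. MTHFD1 came last at 24.1 nM (10.6 to 54.7), above the intervals of all other fitted members, and at 54.0 nM when 300 and 1000 nM were left out. SHMT1 changed too little for the curve to be well fitted. The fitted full changes were -2.80 (SE 0.059) for PSAT1, -2.34 (SE 0.054) for MTHFD2 and -1.06 (SE 0.095) for MTHFD1.

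**Figure D4:**
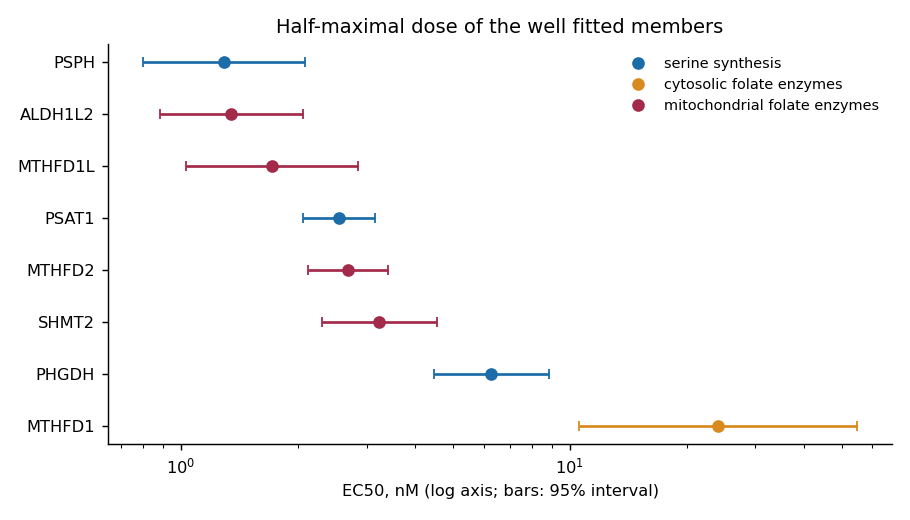
EC50 in nM (x axis, log scale) of the 8 members whose curve was well fitted, with 95% intervals as bars and the role of each gene by colour. PSPH, ALDH1L2 and MTHFD1L lie below 2 nM and MTHFD1 lies highest, at 24.1 nM.

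The genes whose pattern was most like that of a member were found by the root mean square difference of centred log2 CPM over the 12 group means, given in parentheses. This difference is not scaled to the size of a change. A gene that changed little, such as SHMT1, is therefore near other genes that changed little. Nearest to PSAT1 were SLC7A11, a cystine transporter (0.13), STC2, a secreted glycoprotein (0.16), and ASNS, asparagine synthetase (0.17). MTHFD2 ranked 6 of 12101 genes for PSAT1 (0.21), while PHGDH ranked 129 (0.52) and PSPH 126 (0.52). Nearest to MTHFD2 were EIF4EBP1, an inhibitor of translation initiation (0.11), EXOSC5, a subunit of the RNA exosome (0.16), and the histone gene HIST1H2AL (0.16), with PSAT1 at rank 15. For PHGDH they were the histone gene HIST1H2AJ (0.09), the transcription factor TFAP4 (0.09) and the importin IPO4 (0.10), with SHMT2 at rank 8 (0.11) and PSAT1 at rank 2377. SHMT1 was nearest to ISOC2 (0.05), CHCHD2 (0.06) and NDUFV1 (0.06), and its partner MTHFD1 ranked 4680. Histone genes have near-identical copies that amplicons may share.

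Folate enzymes outside the 9 moved in both directions. Of 13 such genes 11 were tested, and at 1000 nM 3 were called lower and 2 higher, with a median log2 fold change of -0.13; these shares are near the 20.7% lower and 21.2% higher of all tested genes. MTRR, which reactivates methionine synthase, was at -1.34 (SE 0.174), MTHFS, which recycles formyl-tetrahydrofolate, at -0.65 (SE 0.143) and methionine synthase MTR at -0.51 (SE 0.135). GGH, which trims folate polyglutamates, was higher at 0.49 (SE 0.116). Thymidylate synthase TYMS, which serves DNA synthesis, was not called at 1000 nM (-0.13, SE 0.103). It was called higher at 1 nM, at 0.47 (SE 0.102, adjusted p = 0.002, edgeR), a dose at which 5 of the 9 serine and folate members were called lower and 3.95% of tested genes higher. TYMS was also higher at 3, 10 and 30 nM (0.54, 0.52 and 0.30). Genes of DNA replication were also higher at 1 nM: of 8 tested, 6 were called higher and 0 lower at 1 nM with a median of 0.46, and 0 higher and 7 lower at 1000 nM with a median of -0.73.

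The counts of carriers of serine and folate and of users of one-carbon units stand beside 20.7% of all tested genes called lower and 21.2% called higher at 1000 nM. Of 8 tested serine and glycine carriers 7 were called lower and 1 higher at 1000 nM, with a median of -1.29: SLC1A5 was at -2.11 (SE 0.103), SLC38A1 at -1.65 (SE 0.112), SLC38A2 at -1.30 (SE 0.095) and SLC1A4 at -1.28 (SE 0.106). The 1 that rose was SFXN3 at 1.09 (SE 0.165), named after its value was seen. Of 4 tested folate carriers, the plasma membrane carrier SLC19A1 (-2.10, SE 0.277) and the mitochondrial carrier SLC25A32 (-0.90, SE 0.136) were lower and the receptor FOLR1 higher at 1.76 (SE 0.419, from 51 counts at 1000 nM and 28 in DMSO), with a median of -0.59. Both purine synthesis enzymes that use formyl-tetrahydrofolate were lower, GART at -1.70 (SE 0.177) and ATIC at -0.39 (SE 0.110), with a median of -1.04. Of 3 tested genes of glycine cleavage, 1 was lower, GCSH at -0.77 (SE 0.248), with a median of -0.24, and GLDC had 0 counts in all 36 libraries. Of 4 tested genes of the methionine cycle and transsulfuration, CTH (-0.89, SE 0.196), AHCY (-0.66, SE 0.120) and MAT2A (-0.46, SE 0.127) were lower and MAT2B higher (0.36, SE 0.104), with a median of -0.56.

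Genes that spend serine elsewhere included 3 that rose. Of 7 tested serine users other than the hydroxymethyltransferases, 0 were called lower and 3 higher at 1000 nM, with a median of 0.40, where 20.7% of all tested genes were lower and 21.2% higher. These 3 were subunits of serine palmitoyltransferase, which starts sphingolipid synthesis: SPTLC3 at 2.51 (SE 0.159), SPTLC2 at 0.89 (SE 0.104) and SPTLC1 at 0.40 (SE 0.117). SPTLC3 averaged 70.4 ± 7.65 CPM at 1000 nM (SD, n = 3) and 12.4 ± 0.712 CPM in DMSO (SD, n = 6).

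**Figure D5:**
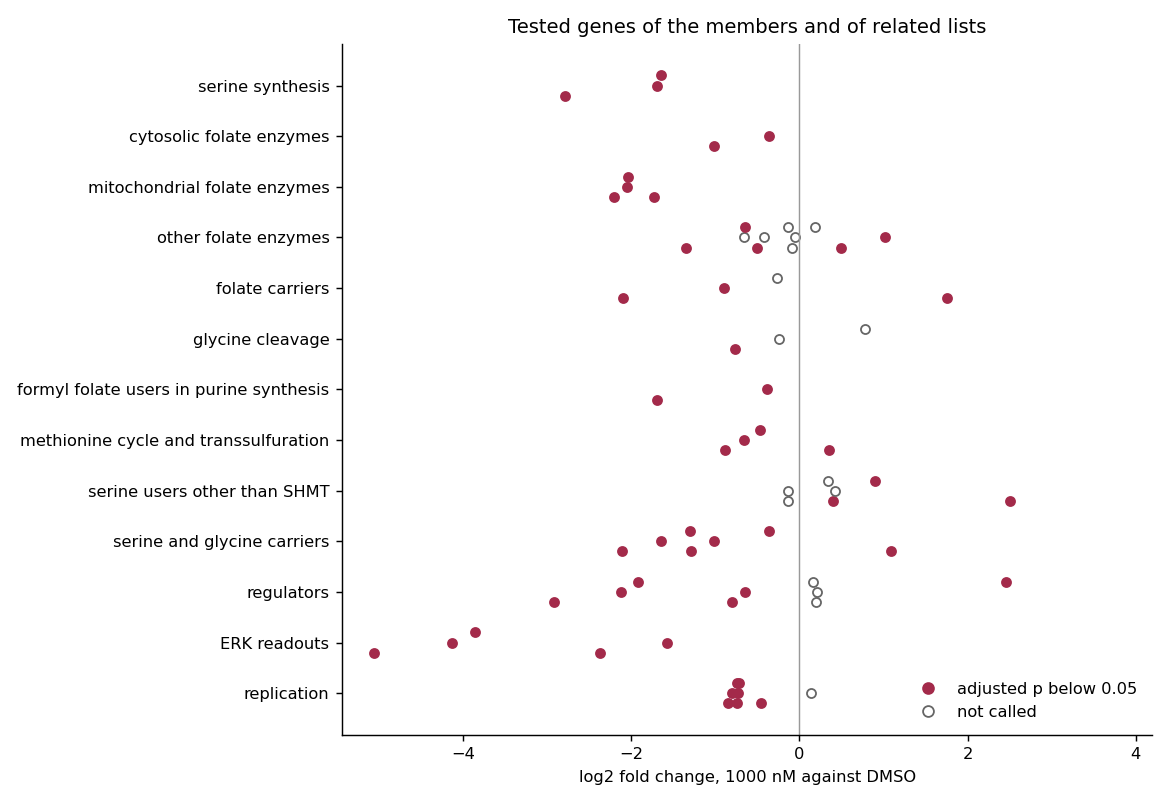
Log2 fold change at 1000 nM against DMSO (x axis) of each tested gene of the members and of the related lists (rows). Filled points have an adjusted p below 0.05 in edgeR, open points are not called, and genes with 3 or fewer counts at 1000 nM are left out. Points of the serine synthesis and mitochondrial rows all lie below -1.6, while the other folate enzymes lie on both sides of 0.

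Among 9 genes listed as regulators, which act in transcription of these pathways or in stress signalling, 5 were called lower and 1 higher at 1000 nM, where 20.7% of all tested genes were lower and 21.2% higher, with a median of -0.65. MYC, which averaged 55.9 ± 5.72 CPM at 1000 nM (SD, n = 3) and 423.3 ± 16.6 CPM in DMSO (SD, n = 6), was at -2.92 (SE 0.103), TRIB3, a pseudokinase induced by ATF4, at -2.12 (SE 0.114), ATF4 at -0.80 (SE 0.095) and NFE2L2 at -0.65 (SE 0.130). At 1 nM, where PSAT1, MTHFD1L and ALDH1L2 were called lower, ATF4 (-0.16) and MYC (-0.15) were not called, and TRIB3 was (-0.46, SE 0.108, adjusted p = 0.00566, edgeR). ATF4 (-0.61) and MYC (-0.76) were called from 3 nM up. RNA of ATF4 or MYC does not measure their protein, and that of ATF4 is known to be set by translation. A gene that was not called may still have changed, and the part of either regulator in the changes of the members was not tested. Of 6 ERK readouts, 3 were called lower at 1 nM and 6 at 1000 nM, with a median at 1000 nM of -3.99, and -3.60 with SPRY4, which had 0 counts there, set at its bound of 3 counts over the group. DUSP6 was at -0.83 (SE 0.122) at 1 nM and -5.06 (SE 0.196) at 1000 nM.

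Beside these changes, the summed level of 9 fibroblast markers lay between 41.0 and 42.4 CPM at 1000 nM and between 3.28 and 4.51 CPM in DMSO, with COL1A2, THY1, FAP and POSTN at 0 counts at 1000 nM. The sum at 1000 nM came mainly from COL3A1, COL1A1 and LUM, which averaged 16.8, 12.9 and 10.9 CPM. DCN and PDGFRA averaged 0.557 and 0.547 CPM there. Of 5 blood markers the sum was between 0.281 and 1.93 CPM at 1000 nM and between 0 and 1.75 CPM in DMSO, with PTPRC and CD3E among those at 0. Their part in the results was not tested. RefSeq lists pseudogene copies of PSAT1 (4), MTHFD2 (7), PSPH (1), SHMT1 (1) and MTHFD1 (1), none of them a row of the table, so amplicons that match such a copy would add its reads, and these levels are uncertain in that respect.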

How the data were processed

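The authors deposited raw counts for each gene, as whole numbers with no normalization. Per the labels' protocols, total RNA was reverse transcribed, amplified as Ion AmpliSeq amplicons, barcoded and pooled. Per the submitters' processing notes, the genome build was hg19; aligner and counting tool: not given in the sources used here. Rows of 10 spike-in controls held 0 counts. Total counts are not corrected for repeated amplification of a molecule.

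edgeR 4.0.16 (R 4.3.3) fitted a robust quasi-likelihood model with 12 groups to 36 libraries, after filterByExpr (12102 genes) and TMM, with 24 residual degrees of freedom. For every dose, chip 1 and chip 2 DMSO groups served as references in turn. The larger p received the Benjamini-Hochberg adjustment across tested genes, and a call needed an adjusted p below 0.05 and the same sign against both. Steps between doses came from the same fit. Printed fold changes use the average of the DMSO groups and the larger SE. EC50 came from least squares of log2 CPM (prior count 1) on base + top × dose/(dose + EC50), and counted as well fitted with an SE of log10 EC50 below 0.2. Curves and figures were made with scipy 1.17.1, matplotlib 3.10.9, pandas 2.3.3, numpy 2.4.6 and Python 3.11.15. Procedures were tested on simulated data.

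The 9 members and all gene lists were chosen with earlier results of these data known. Beside the members, up to 4 called genes of each list by adjusted p at 1000 nM, TYMS, ATF4, MYC and DUSP6, and the 3 genes nearest in pattern to PSAT1, PHGDH, MTHFD2 and SHMT1 were named; some genes that this takes are not reported here. How the cultures of the biological replicates were separated is not in the labels, so p-values reflect only how these samples vary, which may be partly technical. Deviations of same-numbered DMSO libraries on the chips correlated at 0.152, 0.0955 and 0.0993 over all tested genes, and 0.433, 0.307 and 0.412 over 3834 genes above 50 CPM, so they may share a culture. Same-numbered libraries differed by more than sampling noise, with a mean chi-square per gene of 1.58 to 1.63. That was less than between DMSO libraries of different numbers, at 1.65 to 2.88. All were kept as 6 libraries for the SD, since the correlation over all tested genes did not reach 0.1 in every pair. The EC50 intervals count all 36 libraries as independent, and may be too narrow if DMSO libraries share a culture. The tests use the 3 libraries of a chip at a time. RefSeq proteins were not used here.

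Alternatives were DESeq2 1.42.0, limma 3.58.1 (voom), other filters, no TMM, each DMSO reference, fits of only the libraries compared, a replicate block and leaving out each replicate. The fit without the 3 libraries that stood apart and the fit with DMSO counts summed over chips were chosen after seeing the data.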

Additional observations from a re-analysis of the deposited data

How the results depend on the processing

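Members called lower stayed at 7 at 3 nM in every alternative run, and at 8 or 9 at 1000 nM; at 1 nM they numbered 4 to 6. No alternative turned the sign of a called member, and the changes of the 3 partner ratios moved by less than their SD. Counts over all genes depended more on the DMSO reference. At 1 nM, where 965 genes were called, it was 1652 with chip 1 alone, 1789 with chip 2 alone, 2537 against the mean of both and 1824 with DMSO summed over chips. At 3 nM, where 1615 were called, the last 2 of these gave 3137 and 2525, and at 10 nM, where 3249 were called, the mean gave 4964. At 0.03 nM, with 0 called, chip 2 alone, the mean and no filter each gave 1, and at 0.1 nM no filter gave 4. At 0.3 nM, also with 0 called, chip 2 alone gave 3, the mean 4, no filter 40, the fit of only the libraries compared 125 with 1 member, and the fits without the 3 libraries that stood apart and with DMSO summed 1 each.

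Between doses, no filter gave 37 genes for 0.1 against 0.03 nM, 86 for 0.3 against 0.1 nM, 488 for 1 against 0.3 nM, 483 for 10 against 3 nM, 53 for 30 against 10 nM, 58 with 1 member for 100 against 30 nM, 188 for 300 against 100 nM and 270 for 1000 against 300 nM. DESeq2 gave 1 for 0.3 against 0.1 nM, 15 for 100 against 30 nM and 4 for 1000 against 300 nM. Without the 3 libraries that stood apart it was 672 with 5 members for 10 against 3 nM, 108 with 2 members for 30 against 10 nM, 39 for 100 against 30 nM, 14 for 300 against 100 nM and 919 with 2 members for 1000 against 300 nM. Without TMM 1 member was lower from 10 to 30 nM. Leaving out each replicate in turn gave 0 to 7 genes for 0.1 against 0.03 nM, 0 to 20 with 0 to 1 member for 0.3 against 0.1 nM, 117 to 418 for 1 against 0.3 nM, 266 to 737 for 3 against 1 nM, 53 to 349 for 10 against 3 nM, 7 to 51 with 0 to 1 member for 30 against 10 nM, 1 to 26 for 100 against 30 nM, 0 to 1 for 300 against 100 nM and 0 to 363 for 1000 against 300 nM.

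At 1000 nM glycine cleavage had 2 genes lower with chip 2 alone, the mean or DMSO summed, 1 higher with chip 1 alone, the mean or DMSO summed, and 0 to 1 lower without single replicates. MAT2B lost its call with no filter and with at least 1 CPM in 3 libraries, which left 0 higher, and the range was 0 to 1 without single replicates; purine enzymes lower ranged over 1 to 2. MYCN, the regulator called higher from 25 counts at 1000 nM and 8 in DMSO, lost its call when only the libraries compared were fitted, which left 0. SHMT1 against chip 1 alone was at -0.015 at 3 nM and -0.029 at 10 nM, and at 10 nM it ranged from -0.04 to 0.087 without single replicates; MTHFD1 at 3 nM ranged from -0.278 to 0.049. SHMT1 was called at 100 and 300 nM with chip 1 alone, the mean or DMSO summed. The EC50 without single replicates was 1.06 to 1.64 nM for PSPH and 1.23 to 2.29 nM for MTHFD1L. Without the 3 libraries that stood apart it was 2.28 nM for PSAT1 and 2.22 nM for MTHFD1L, and without 300 and 1000 nM it was 54.0 nM for MTHFD1 and 1.24 nM for MTHFD1L. The cause of these shifts was not tested.

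Over all groups, replicate numbers did not pair the libraries, although same-numbered DMSO libraries may share a culture: correlations of same-numbered deviations ran from -0.330 to 0.522, and 11 of 36 libraries correlated best with their own number. With a replicate block 5 members were called lower at 1 nM, 7 at 3 and 10 nM, 8 at 30, 100 and 300 nM and 9 at 1000 nM, the same counts as without it, and 5044 genes in all at 1000 nM. Among the members depth limits ALDH1L2 most, with 214 counts over the 3 libraries at 1000 nM.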
